A study of Mus musculus with 69 samples.

Results

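The 8 genes described here, Ms4a4a, Ms4a4b, Ms4a4c, Ms4a6b, Ms4a6c, Ms4a6d, Ms4a7 and Ms4a8a, belong to the membrane-spanning 4A family and lie together on mouse chromosome 19. They were taken by symbol from the expression tables, which list 24537 genes, among them 9 other Ms4a genes. All RNA came from bone marrow-derived macrophages (BMDMs), which are bone marrow cells grown for 7 days with the growth factor M-CSF, of female mice aged 8 to 12 weeks. Cells were left untreated (basal) or given 20 ng/mL of mouse interleukin 4 (IL-4), the type 2 cytokine that drives alternative macrophage activation. A table of 5 strains held basal cells and cells after 24 hours of IL-4 from the classical inbred strains C57BL/6J (C57), BALB/cJ (BALB) and NOD/ShiLtJ (NOD) and the wild-derived strains SPRET/EiJ (SPRET) and PWK/PhJ (PWK), with 3 libraries per group and 2 for basal PWK. A time-course table held C57 and SPRET cells at basal and at 1, 6 and 24 hours, with 2 libraries per group. Another table held Egr2 fl/fl cells (Egr2WT), in which both copies of the transcription factor gene Egr2 carry recombination sites but remain in use, and LyzM-Cre Egr2 fl/fl cells (Egr2MKO), at the same times and with 2 libraries per group. The Cre recombinase is driven by the lysozyme M gene, so Egr2 is removed in myeloid cells of the latter, and the controls lack Cre, so that Cre itself and the loss of Egr2 cannot be told apart. Finally, allele-resolved values came from F1 hybrids of C57 with SPRET and of C57 with NOD, at basal and after 24 hours of IL-4, with 2 libraries per group.

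MS4A proteins cross the membrane several times and sit beside receptors, where they shape signaling and trafficking. The best-known relatives are CD20 of B cells (Ms4a1) and the beta chain of the high-affinity IgE receptor (Ms4a2). In macrophages, MS4A4A associates with the fungal receptor Dectin-1 (Clec7a), Ms4a7 marks several resident macrophage populations, and Ms4a8a was described in alternatively activated macrophages. In humans, the MS4A4A and MS4A6A locus is tied to the soluble form of the microglial receptor TREM2. Ms4a4b is known from T cells. IL-4 acts through the transcription factor STAT6, and Egr2 is itself induced by IL-4.

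The sequences just upstream of the gene starts are shown to place the genes beside each other and to let their near-copies be seen. Each line gives the 250 bases before the start of the gene in the gene's direction, from RefSeq on GRCm38.p6. Capitals mark matches, on either strand, to a STAT site (TTC and GAA with 4 bases between them), an EGR site (GTGGGNG) or a PU.1 core (GAGGAA).
Ms4a4a, chr19:11375238-11375487, plus strand: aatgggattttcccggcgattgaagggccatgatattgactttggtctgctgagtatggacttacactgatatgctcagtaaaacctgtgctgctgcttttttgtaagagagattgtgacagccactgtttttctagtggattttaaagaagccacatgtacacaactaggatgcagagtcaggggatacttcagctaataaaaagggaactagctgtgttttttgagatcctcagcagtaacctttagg
Ms4a7, chr19:11336147-11336396, minus strand: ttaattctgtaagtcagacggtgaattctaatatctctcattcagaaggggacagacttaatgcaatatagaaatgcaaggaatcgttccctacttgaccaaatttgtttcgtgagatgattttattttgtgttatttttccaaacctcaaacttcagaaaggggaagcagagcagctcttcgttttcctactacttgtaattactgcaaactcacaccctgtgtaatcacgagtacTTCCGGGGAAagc
Ms4a4c, chr19:11407411-11407660, plus strand: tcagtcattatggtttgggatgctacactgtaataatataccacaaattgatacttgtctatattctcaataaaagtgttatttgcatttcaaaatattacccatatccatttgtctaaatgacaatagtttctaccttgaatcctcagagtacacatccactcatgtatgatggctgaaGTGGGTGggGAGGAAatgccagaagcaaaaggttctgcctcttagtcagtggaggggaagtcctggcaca
Ms4a4b, chr19:11443308-11443557, plus strand: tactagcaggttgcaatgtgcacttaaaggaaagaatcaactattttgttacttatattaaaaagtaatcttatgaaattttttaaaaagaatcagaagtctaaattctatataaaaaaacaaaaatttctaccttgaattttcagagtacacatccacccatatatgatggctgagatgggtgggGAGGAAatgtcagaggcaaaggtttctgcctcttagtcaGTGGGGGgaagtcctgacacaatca
Ms4a6c, chr19:11469118-11469367, plus strand: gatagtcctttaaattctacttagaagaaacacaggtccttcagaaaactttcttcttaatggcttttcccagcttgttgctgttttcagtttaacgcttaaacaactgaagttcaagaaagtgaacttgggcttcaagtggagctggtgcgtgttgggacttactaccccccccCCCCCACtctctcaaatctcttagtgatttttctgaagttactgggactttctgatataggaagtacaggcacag
Ms4a6b, chr19:11518309-11518558, plus strand: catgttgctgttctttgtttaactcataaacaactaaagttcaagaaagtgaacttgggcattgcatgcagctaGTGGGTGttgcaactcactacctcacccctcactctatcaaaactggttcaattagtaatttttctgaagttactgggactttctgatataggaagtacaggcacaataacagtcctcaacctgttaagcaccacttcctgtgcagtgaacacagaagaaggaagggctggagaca

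The window shown for Ms4a7, before its start at 11336146, held TTCCGGGGAA, with both ends of the STAT site, from 13 to 4 bases before the start. The window before its other start, 11334695, which the 5-strain and time-course tables list, is not shown and held 0 STAT matches. STAT matches were found in 1 of the 8 windows available, counting a window at each of both starts of Ms4a7, and in 5.85% of 32851 windows genome-wide. EGR matches were found in 5 of the 8 windows against 28.1% genome-wide, and PU.1 cores in 2 of 8 against 23.3%. The EGR matches were in Ms4a4c, Ms4a4b, Ms4a6c, Ms4a6b and Ms4a8a, whose window is not shown. Because some of these genes have partly copied windows, the windows are not independent, and the shares were not tested against each other. An interferon-type element (GAAA repeated after 2 other bases) was found in 0 of 8 windows against 2.98%. The window of Ms4a4a held none of these letters. Ms4a4c and Ms4a4b had the closest windows end to end, with 194 identical bases in 270 aligned columns (71.9%), while the other pairs lay between 49.5 and 55.4%. Ms4a6c and Ms4a6b shared an unbroken run of 48 bases, which ends 2 bases before the start of Ms4a6c and 71 bases before that of Ms4a6b, the longest run of any pair. Matches are letters and not binding sites. No window was at hand for Ms4a6d.

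In the expression tables, Ms4a8a (11067471 to 11081103), Ms4a7 (11321039 to 11334695) and Ms4a6d (11586606 to 11604804) are on the minus strand of mm10, and Ms4a4a (11375488 to 11392915), Ms4a4c (11407661 to 11427246), Ms4a4b (11443558 to 11463548), Ms4a6c (11469368 to 11482196) and Ms4a6b (11518559 to 11530403) on the plus strand. For Ms4a7, the Egr2 table lists a longer gene that begins at 11336146, with 1327 bp of exon against 1567 bp, so its level is not on the same footing there. Of 75-base stretches of the Ms4a6c transcripts, 47.7% also occur in other genes, mainly the antisense gene BE692007, and since strand use in counting is not given in the sources used here, values of Ms4a6c are uncertain. The share was 3.78% for Ms4a4c, with Ms4a4b, and at most 1.18% for the other members.

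Levels are in TPM, transcript numbers scaled to the same total in each library and corrected for gene length. Differences are log2 differences of TPM + 1 from limma, with Benjamini-Hochberg adjustment over all genes that reached 1 TPM in 2 or more libraries. A gene was called where the difference was over 2-fold with an adjusted p under 0.05. A change on this scale understates the ratio for genes near 1 TPM. The libraries of the 3 tables held about 4687000 to 32870000 tags. The study's methods call the libraries biological replicates, and whether these were separate animals or separate cultures is not given in the sources used here, so p-values measure the spread between these libraries. In bulk RNA, fewer cells of a type and less RNA per cell cannot be told apart. Macrophage markers summed to 9308 to 30180 TPM over 6 genes in the 5 strains, while T cell, B cell, mast cell and dendritic cell marker lists summed to at most 9.21 TPM. Of the 6 macrophage genes, 5 had a mean of at least 1 TPM in basal NOD and in basal PWK, and 6 in each other group. A single one reached 25933 TPM, so the sum can be carried by 1 gene. Neutrophil and progenitor markers summed to 547 to 598 TPM in PWK, 249 to 404 TPM in SPRET and 15.2 to 131 TPM in the other strains. Monocyte markers, a list of 3 genes, summed to 25.4 to 28.9 TPM in basal C57 and 9.52 to 11.4 TPM in C57 with IL-4, to 2.37 to 3.34 TPM in basal BALB and 1.21 to 2.04 TPM in BALB with IL-4, and to at most 4.70 TPM in the other strains, with 0.436 to 0.534 TPM in basal SPRET. The part of these marker levels in the results was not tested. Over all genes the median log2 difference from basal C57 was -0.30 in basal NOD and -0.16 in basal PWK, and the median response exceeded that of C57 by 0.13 to 0.17 in NOD, PWK and SPRET, so that small differences there are to be read against that shift.

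The first question was how the 5 strains differ in these genes before and after IL-4. Of the 8 members, 7 passed the filter on low values, and Ms4a4b did not. Ms4a8a passed through PWK and IL-4 SPRET libraries alone. IL-4 raised Ms4a4a in each strain, by 1.79-fold of mean TPM in BALB to 258-fold in SPRET. In these libraries it also raised Ms4a7 in each strain, by 1.30-fold to 3.24-fold. In contrast, Ms4a4c, Ms4a6b and Ms4a6c fell in C57 (by 0.40 to 0.53 on the log2 scale) and BALB (by 0.68 to 1.18) and did not fall past the test in NOD, PWK or SPRET. The number of members called was 1 of 7 in C57 (3.8% of all genes tested were called), 1 of 7 in BALB (2.08%) and 1 of 7 in NOD (1.19%). PWK had 3 of 7 members called (2.08%) and SPRET 2 of 7 (3.94%). Before IL-4, the members called against C57 were 2 of 7 in BALB (4.81% of all genes), 3 of 7 in NOD (16.9%), 3 of 7 in PWK (13.3%) and 5 of 7 in SPRET (18.1%). Response means the log2 difference from basal to 24 hours of IL-4, and 1 of 7 members had a called difference in response from C57 in BALB (1.49% of all genes), 1 of 7 in NOD (2.47%), 2 of 7 in PWK (2.26%) and 3 of 7 in SPRET (3.45%). The comparisons with C57 share the C57 libraries. Ms4a8a is among the PWK members called in each of these comparisons, having passed the filter largely through PWK. With a pseudocount of 5, differences that fell under 2-fold were the basal ones of Ms4a6b in BALB (-0.89) and Ms4a4a in NOD (-0.95), the IL-4 ones of Ms4a4a in NOD (0.72) and Ms4a4c in BALB (-0.70), and the SPRET responses of Ms4a4c (0.73) and Ms4a7 (0.67).

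**Figure D1:**
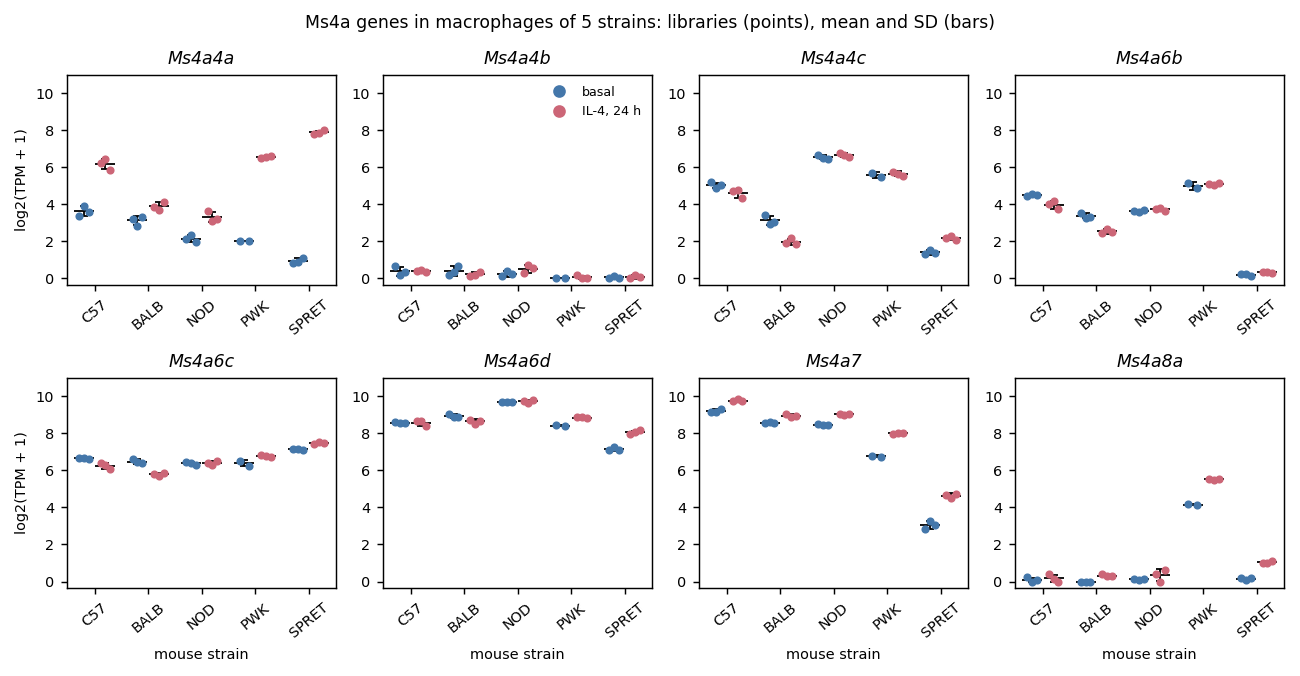
Levels of the 8 Ms4a genes in the 5 strains, as log2(TPM + 1) on the vertical axis and strain on the horizontal axis. Points are libraries (blue, basal, and red, 24 hours of IL-4), horizontal bars are means and vertical bars are SD. The red points of Ms4a4a in SPRET stand above all others of that gene, and Ms4a8a rises above the floor in PWK.

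Ms4a4a, the macrophage tetraspan-like partner of Dectin-1, had 9.35, 14.0 and 10.8 TPM in the 3 basal C57 libraries and 73.6, 85.4 and 57.2 TPM after IL-4. In SPRET it had 0.772, 0.828 and 1.13 TPM at basal and 223, 229 and 252 TPM after IL-4. Basal and IL-4 libraries did not overlap in either strain, and SPRET moved from the lowest basal level to the highest level with IL-4. The log2 difference was 2.56 ± 0.16 (SE) in C57 (limma, adjusted p = 8.76e-13) and 6.95 ± 0.16 in SPRET (limma, adjusted p = 9.77e-22). In PWK it had 2.98 and 2.99 TPM at basal and 89.6, 92.0 and 96.6 TPM with IL-4, a log2 difference of 4.55 ± 0.17 (limma, adjusted p = 2.24e-16). In NOD, 3.43, 4.02 and 2.82 TPM at basal became 11.3, 7.59 and 8.06 TPM, a log2 difference of 1.16 ± 0.16 (limma, adjusted p = 3.37e-06). In BALB, 8.26, 6.15 and 8.99 TPM became 13.6, 11.9 and 16.3 TPM, a log2 difference of 0.77 ± 0.16 (limma, adjusted p = 0.000457), which was under 2-fold.

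At basal, the order of Ms4a4a levels was C57, BALB, NOD, PWK and SPRET. The PWK libraries lay within the range of NOD, and the other neighbours in that order did not overlap. With IL-4, the order was SPRET, PWK, C57, BALB and NOD, and no neighbours overlapped. The response of Ms4a4a was larger than in C57 by 4.39 ± 0.22 on the log2 scale in SPRET (limma, adjusted p = 7.79e-14) and by 2.00 ± 0.23 in PWK (limma, adjusted p = 6.44e-07). It was smaller than in C57 by 1.79 ± 0.22 in BALB and by 1.40 ± 0.22 in NOD (limma, adjusted p = 2.17e-06 and 3.52e-05). These responses differed from C57 in each of the 4 other strains, in both directions.

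Ms4a7 was the most abundant member in C57. Its basal C57 libraries held 576, 570 and 633 TPM, and its IL-4 libraries 853, 917 and 845 TPM. Basal SPRET held 6.16, 8.79 and 7.34 TPM, and IL-4 SPRET 24.7, 21.5 and 25.9 TPM. No SPRET library came near any library of another strain. The basal difference of SPRET from C57 was -6.15 ± 0.075 (limma, adjusted p = 1.03e-27), or 79.8-fold of mean TPM. PWK stood between, with 110 and 106 TPM at basal and 251, 256 and 262 TPM with IL-4, a basal difference from C57 of -2.44 ± 0.084 (limma, adjusted p = 2.7e-18). BALB (372 to 385 TPM) and NOD (349 to 364 TPM) were lower than C57 by 0.64 and 0.74 on the log2 scale at basal, which passed the test (limma, adjusted p = 1.23e-07 and 3.06e-09) but stayed under 2-fold. The rise with IL-4 was called in PWK (1.24 ± 0.084) and SPRET (1.58 ± 0.075), and was 0.56, 0.38 and 0.56 in C57, BALB and NOD (limma, adjusted p at most 0.000367). The SPRET response exceeded that of C57 by 1.02 ± 0.11 (limma, adjusted p = 4.39e-08), just over 2-fold, and was under 2-fold at 0.82 with each library rescaled to the median gene ratio and at 0.89 and 0.90 without the libraries numbered 1 or 3.

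Ms4a8a was expressed in PWK, with 16.9 and 16.7 TPM at basal and 46.0, 44.2 and 46.2 TPM with IL-4. In the other strains it did not exceed 0.164 TPM at basal and 1.17 TPM with IL-4. The PWK libraries were thus above each library of the other strains in both conditions. The basal difference of PWK from C57 was 4.05 ± 0.12, and the rise with IL-4 in PWK was 1.39 ± 0.12 (limma, adjusted p = 3.55e-09). Since Ms4a8a passed the filter through PWK and IL-4 SPRET libraries alone, its differences between PWK and C57 describe levels and are not independent support. The PWK response exceeded that of C57, where the gene was near 0, by 1.32 ± 0.17 (limma, adjusted p = 1.98e-06), and with a pseudocount of 0.1 this call was lost (1.16; limma, adjusted p = 0.264), as was that of the rise itself (1.43; adjusted p = 0.0523). PWK was also the strain with the highest sum of neutrophil and progenitor markers, whose part in the level of Ms4a8a was not tested.

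Ms4a6d, Ms4a6c and Ms4a6b are close relatives and differed in their strain order. Ms4a6d, described in a complex with the complement receptor Vsig4, had 822, 817 and 832 TPM in basal NOD against 387, 371 and 369 TPM in basal C57 and 135, 150 and 134 TPM in basal SPRET. NOD was thus above and SPRET below C57 without overlap, by 1.13 ± 0.067 and -1.42 ± 0.067 (limma, adjusted p = 1.37e-13 and 9.4e-16). With IL-4, Ms4a6d reached 252, 265 and 284 TPM in SPRET, a log2 difference of 0.93 ± 0.067 (limma, adjusted p = 2.01e-11) that fell short of 2-fold, and 335 to 405 TPM in C57, where basal and IL-4 libraries overlapped. Ms4a6b was the most unequal of the 3, with 20.7, 22.4 and 21.5 TPM in basal C57, 34.1 and 27.9 TPM in basal PWK and 0.165, 0.162 and 0.078 TPM in basal SPRET. The SPRET difference was -4.31 ± 0.092 (limma, adjusted p = 5e-23), and that of BALB (8.55 to 10.5 TPM) was -1.12 ± 0.092 (limma, adjusted p = 2.71e-10). Ms4a6c was the most even member, at 75.7 to 143 TPM in all basal libraries, and the single one of the 7 whose SPRET level passed the test as higher than C57 (0.49 ± 0.074; limma, adjusted p = 2.13e-06). Its small deficit in NOD (-0.26) turned to 0.14 with each library rescaled to the median gene ratio.

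Ms4a4c, the near-copy of Ms4a4b, had 100, 90.0 and 87.5 TPM in basal NOD, 51.4 and 42.8 TPM in PWK, 35.1, 28.7 and 31.3 TPM in C57, 9.69, 6.58 and 7.36 TPM in BALB and 1.46, 1.87 and 1.61 TPM in SPRET. No neighbours in that order overlapped. Against C57 the basal difference was 1.52 in NOD, -1.89 in BALB and -3.63 in SPRET (limma, adjusted p at most 7.22e-11). IL-4 lowered Ms4a4c in BALB to 2.70, 3.48 and 2.56 TPM (-1.18 ± 0.12; limma, adjusted p = 5.51e-08), a call that fell just under 2-fold without the libraries numbered 1 (-0.997). The SPRET response exceeded that of C57 by 1.20 ± 0.18 (limma, adjusted p = 9.32e-06), from 1.46 to 1.87 TPM at basal to 3.14 to 3.86 TPM with IL-4. Ms4a4b itself did not exceed 0.652 TPM in any of the 29 libraries.

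The strains differed in the sum of the members and in the mixture that made it up. The summed TPM of the 8 genes was 1132 ± 29.6 in basal C57 (SD, n = 3), 981 ± 47.3 in BALB (n = 3), 1368 ± 16.1 in NOD (n = 3), 630 in PWK (n = 2) and 289 ± 13.2 in SPRET (n = 3). After IL-4 it was highest in NOD at 1574 ± 63.1, followed by C57 at 1438 ± 95.9, PWK at 1046 ± 9.89, BALB at 969 ± 56.4 and SPRET at 707 ± 37.0 (SD, n = 3 each). Ms4a7 made up 52.3 ± 1.82% of the sum in basal C57 and 2.56 ± 0.367% in basal SPRET (SD, n = 3). In SPRET, Ms4a6c and Ms4a6d together made up nearly all of the basal sum, at 48.3 and 48.2%, and after IL-4 Ms4a4a rose from 0.316 to 33.2% of it. In NOD, Ms4a6d held the largest share in both conditions, at 60.2 and 53.7%.

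**Figure D2:**
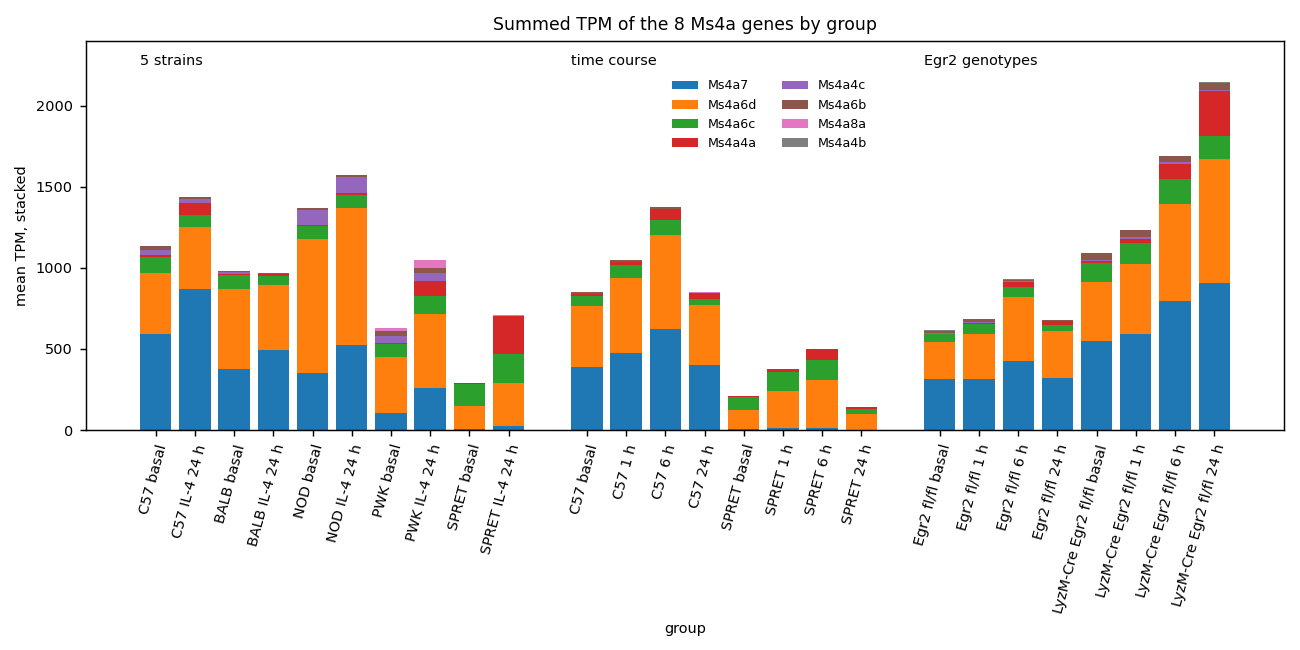
Mean TPM of the 8 Ms4a genes stacked by group, with the vertical axis in TPM from 0 and groups along the horizontal axis for the 3 tables, which were normalized separately. Ms4a7 (blue) is nearly absent from the SPRET bars, and the LyzM-Cre Egr2 fl/fl bar at 24 hours is the tallest of its table.

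The time course asked when the genes respond in C57 and SPRET, and 6 of the 8 members passed the filter there. Ms4a4a rose to a peak at 6 hours in both strains. In C57 its 2 libraries held 10.2 and 11.5 TPM at basal, 17.0 and 16.5 at 1 hour, 60.2 and 74.4 at 6 hours and 31.2 and 34.3 TPM at 24 hours. In SPRET they held 2.93 and 0.658, 14.9 and 11.97, 79.6 and 58.7, and 14.1 and 9.63 TPM at the same times. The strains overlapped at 6 hours, and SPRET was below C57 at the other times. The log2 differences from basal in C57 were 0.58 at 1 hour, 2.52 at 6 hours and 1.51 at 24 hours (limma, adjusted p = 0.463, 9.03e-05 and 0.00195). In SPRET they were 2.49, 4.76 and 2.31 (limma, adjusted p = 0.000145, 1.67e-07 and 7.67e-05). The SPRET response exceeded that of C57 at 6 hours by 2.25 ± 0.44 (limma, adjusted p = 0.00541) and at 1 hour by 1.91 ± 0.44 (limma, adjusted p = 0.0432). The call at 1 hour was lost without any one of 15 of the 16 libraries, where the difference ran from 1.28 to 2.05 and the adjusted p from 0.0505 to 0.154. The basal SPRET libraries lay far apart from each other. At 24 hours the difference in response was 0.80 (limma, adjusted p = 0.198), and it was 1.43 (adjusted p = 0.00425) without the first basal SPRET library.

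**Figure D3:**
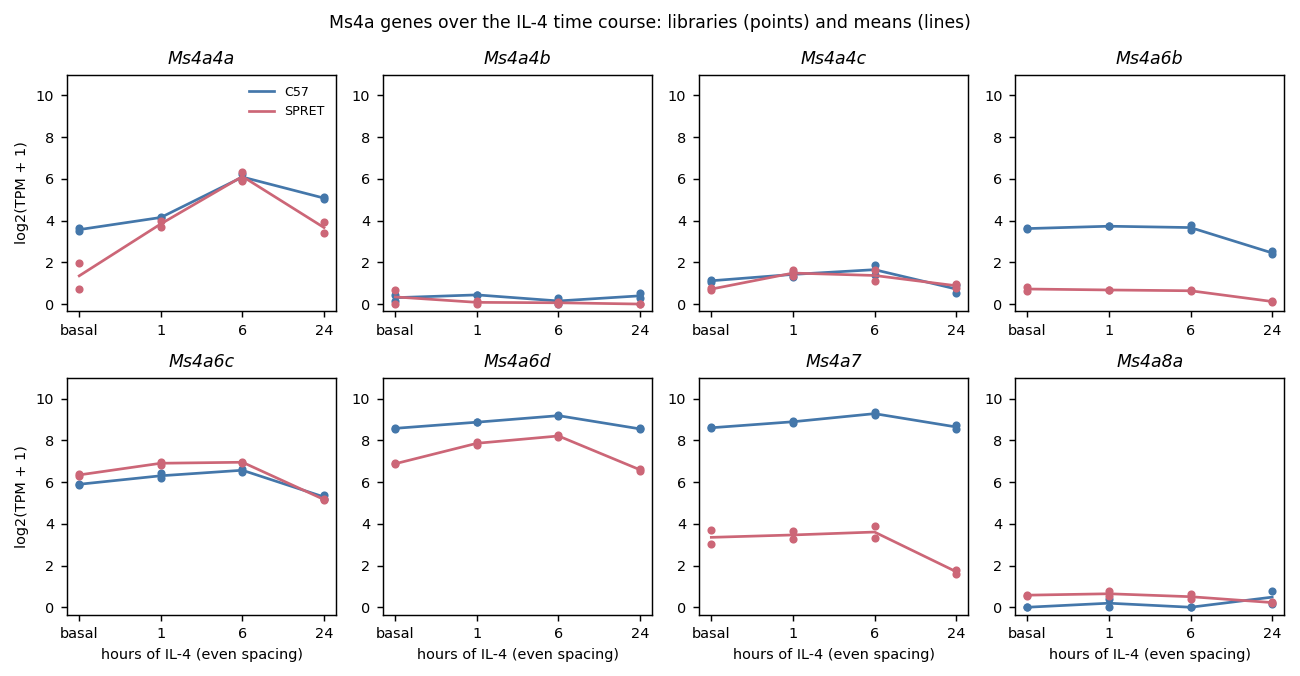
Levels of the 8 Ms4a genes in C57 (blue) and SPRET (red) over the time course, as log2(TPM + 1) on the vertical axis and hours of IL-4, evenly spaced, on the horizontal axis. Points are libraries and lines join means of 2 libraries. Ms4a4a peaks at 6 hours in both strains, and the C57 and SPRET lines of Ms4a7 stay far apart at all times.

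Ms4a7, Ms4a6d and Ms4a6c also had their highest mean at 6 hours in both strains. For Ms4a7 in SPRET, the 6-hour libraries overlapped those at basal and 1 hour, and the difference from basal did not pass the test (0.25; limma, adjusted p = 0.409). The 1-hour and 6-hour libraries of Ms4a6c in SPRET overlapped too. Ms4a6d in SPRET had 119 and 114 TPM at basal, 243 and 219 at 1 hour, 304 and 285 at 6 hours and 98.8 and 91.6 TPM at 24 hours. The rise at 6 hours was 1.33 ± 0.055 (limma, adjusted p = 2.76e-09), and by 24 hours the level was below basal by 0.29 (adjusted p = 0.00117). Ms4a6c in SPRET went from 77.6 and 82.8 TPM at basal to 124 and 121 at 6 hours and to 34.4 and 35.2 TPM at 24 hours, which was lower than basal by 1.18 ± 0.089 (limma, adjusted p = 5.31e-07). Ms4a7 in SPRET fell from 11.9 and 7.08 TPM at basal to 2.47 and 2.06 TPM at 24 hours (-1.64 ± 0.21; limma, adjusted p = 5.28e-05), while C57 went from 380 and 395 to 375 and 423 TPM, where basal and 24-hour libraries overlapped. The difference between the strains in the 24-hour response of Ms4a7 was -1.68 ± 0.30 (limma, adjusted p = 0.0011). Ms4a6b in C57 fell from 11.4 and 11.1 TPM to 4.21 and 4.73 TPM at 24 hours (-1.17 ± 0.11; limma, adjusted p = 4.88e-06). Ms4a4c lay between 0.463 and 2.68 TPM in all 16 libraries, and Ms4a4b and Ms4a8a did not exceed 0.740 TPM. With a pseudocount of 5 the falls of Ms4a6b in C57 (-0.78) and of Ms4a7 in SPRET (-0.97) at 24 hours were under 2-fold. Marker sums moved with strain and time too. Monocyte markers went from 7.49 to 7.57 TPM in basal SPRET to 1.30 to 1.35 TPM at 24 hours, and from 6.41 to 6.48 to 5.25 to 5.75 TPM in C57. Neutrophil and progenitor markers went from 66.2 to 94.2 TPM in basal C57 to 6.49 to 7.97 TPM at 24 hours, and from 67.8 to 73.6 to 71.9 to 91.7 TPM in SPRET. Mast cell and basophil markers summed to 10.9 to 22.4 TPM in SPRET and at most 0.653 TPM in C57, dendritic cell markers to 3.25 to 8.52 TPM in SPRET and at most 0.915 TPM in C57, and macrophage markers to 40135 to 53701 TPM in SPRET and 21534 to 32184 TPM in C57. Their part in the result was not tested.

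In C57, the members called were 0 of 6 at 1 hour (0.877% of all genes tested), where 2 had an unadjusted p under 0.05 (limma), 1 of 6 at 6 hours (2.13%) and 2 of 6 at 24 hours (5.76%). In SPRET they were 1 of 6 (1.89%), 2 of 6 (4.57%) and 3 of 6 (5.62%). Over these 6 comparisons, 23 of 36 member tests and 23664 of 72528 tests of all genes had an unadjusted p under 0.05 (limma). Differences in response between the strains were called for 1 of 6 at each time, against 0.811, 2.4 and 6.22% of all genes.

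The 24-hour values of SPRET differed between the 2 tables. Ms4a4a reached 223 to 252 TPM in the 5-strain table and 9.63 to 14.1 TPM in the time course, and Ms4a7 rose 3.24-fold in the former and fell 4.18-fold in the latter. Ms4a6d and Ms4a6c in SPRET also turned. Their 24-hour log2 differences from basal were 0.93 and 0.34 in the 5 strains and -0.29 and -1.18 in the time course (limma, adjusted p at most 0.00117). In C57, Ms4a4c was at 28.7 to 35.1 TPM at basal in the 5 strains and at 1.23 and 1.10 TPM in the time course. The 24-hour rise of Ms4a7 in C57 was 0.56 in the 5 strains (limma, adjusted p = 1.42e-06). In the time course it was 0.04 and did not pass the test (limma, adjusted p = 0.910). The tables were normalized separately and come from separate sets of libraries, and the source of the difference was not tested. The basal level of Ms4a7 was far below C57 in SPRET in both. Ms4a4a rose more in SPRET than in C57 at 24 hours in the 5 strains and at 6 hours in the time course, which are unlike times. At 24 hours in the time course the difference in response did not pass the test (0.80; limma, adjusted p = 0.198). There SPRET was at 9.63 to 14.1 TPM against 31.2 to 34.3 TPM in C57.

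The Egr2 table asked which genes depend on Egr2. Egr2 itself was at 21.3 and 23.6 TPM in basal Egr2WT and at 0.854 and 0.859 TPM in basal Egr2MKO, and at 24 hours at 99.5 and 101 TPM against 4.72 and 7.05 TPM. These are values of the whole gene, and reads outside the removed part cannot be told apart. Ms4a4a, Ms4a4c, Ms4a6b, Ms4a6c, Ms4a6d and Ms4a7 were higher in Egr2MKO at each time, with no overlap between genotypes. With 2 libraries per group such separation is common, and its share over all genes was not computed. Over the 4 times, an unadjusted p under 0.05 was found in 25 of 32 member tests and 15321 of 48316 tests of all genes (limma). At basal, 4 of the 8 members were called, all higher, against 0.853% of genes called in either direction. At 1 and 6 hours of IL-4 the count was again 4 of 8, against 1.06 and 2.3% of all genes. At 24 hours 6 of 8 were called, all higher, against 4.55%.

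Ms4a4a was at 1.25 and 3.92 TPM in basal Egr2WT and at 10.5 and 10.6 TPM in basal Egr2MKO. After 24 hours of IL-4 it was at 28.9 and 28.0 TPM in Egr2WT and at 289 and 271 TPM in Egr2MKO. The genotypes were thus apart at both times, and the gap was widest at 24 hours. The log2 difference was 1.79 at basal, 1.80 at 1 hour, 1.67 at 6 hours and 3.25 at 24 hours, each ± 0.28 (limma, adjusted p = 0.00111, 0.00108, 0.00122 and 2.38e-06). Egr2WT reached 29.2 and 28.8 TPM at 6 hours and was level with that at 24 hours, whereas Egr2MKO rose from 95.1 and 93.7 TPM at 6 hours. The 24-hour response was larger in Egr2MKO by 1.46 ± 0.39 (limma, adjusted p = 0.0293), but it lost the call without any one of the 24-hour libraries (adjusted p = 0.066 to 0.0864) or of the basal Egr2MKO libraries (0.0802 and 0.0831), and was 0.89 without the second basal Egr2WT library.

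Ms4a6b was at 14.6 and 17.5 TPM in basal Egr2WT and at 38.4 and 40.8 TPM in basal Egr2MKO. With 24 hours of IL-4 it fell to 4.24 and 5.96 TPM in Egr2WT (-1.49 ± 0.15; limma, adjusted p = 9.68e-06) and stood at 46.1 and 41.3 TPM in Egr2MKO. The fall was thus seen in Egr2WT, and Egr2MKO had 24-hour libraries above its basal ones by a difference that did not pass the test (0.14; limma, adjusted p = 0.561). The difference in response was 1.63 ± 0.21 (limma, adjusted p = 0.000342). Ms4a4c was at 2.39 and 4.107 TPM at basal and 0.652 and 0.912 TPM at 24 hours in Egr2WT, against 9.28 and 10.5 and then 7.79 and 6.74 TPM in Egr2MKO. Its genotype difference was 1.38, 1.97, 1.87 and 2.21 over the 4 times, each ± 0.23 (limma, adjusted p at most 0.00185), and that of Ms4a6c was 1.18, 1.06, 1.31 and 2.05, each ± 0.080 (limma, adjusted p at most 5.39e-06).

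Ms4a7 was at 318 and 308 TPM in basal Egr2WT and 559 and 543 TPM in basal Egr2MKO, and at 312 and 329 TPM against 918 and 892 TPM at 24 hours. Its genotype difference passed the test at each time and went over 2-fold at 24 hours, at 1.50 ± 0.040 (limma, adjusted p = 2.17e-10). Ms4a6d was at 216 and 241 TPM against 367 and 359 TPM at basal and at 294 and 290 TPM against 766 and 767 TPM at 24 hours, a difference of 1.39 ± 0.060 (limma, adjusted p = 7.7e-09). The responses of Ms4a6c, Ms4a6d and Ms4a7 at 24 hours were larger in Egr2MKO by 0.88, 0.72 and 0.68 (limma, adjusted p = 0.000342, 0.000174 and 1.46e-05), under 2-fold. Ms4a4b stayed between 0 and 1.33 TPM. Ms4a8a did not exceed 0.344 TPM except in a 1-hour Egr2MKO library (1.37 TPM) and a 6-hour Egr2MKO library (7.91 TPM), each beside a replicate at 0.129 and 0.341 TPM. Ms4a4b and Ms4a8a reached 1 TPM, and so passed the filter, in Egr2MKO libraries alone. The summed TPM of the 8 genes was 614 in basal Egr2WT and 1089 in basal Egr2MKO, and 680 against 2143 at 24 hours (means, n = 2).

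**Figure D4:**
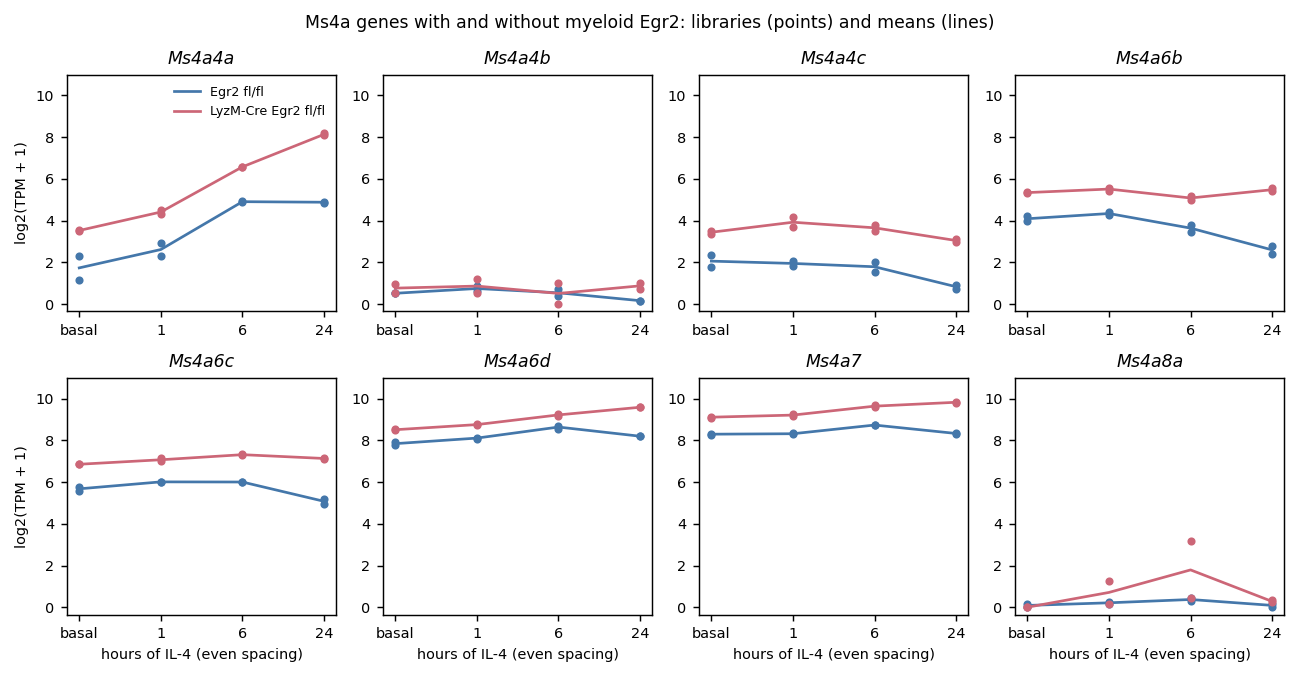
Levels of the 8 Ms4a genes in Egr2 fl/fl (blue) and LyzM-Cre Egr2 fl/fl (red) macrophages, as log2(TPM + 1) on the vertical axis and hours of IL-4, evenly spaced, on the horizontal axis. Points are libraries and lines join means of 2 libraries. The red lines of Ms4a4a, Ms4a4c, Ms4a6b, Ms4a6c, Ms4a6d and Ms4a7 lie above the blue lines at each time.

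Within Egr2WT, the members called against basal were 0 of 8 at 1 hour (0.778% of all genes), where 3 had an unadjusted p under 0.05 (limma), 1 of 8 at 6 hours (2.86%) and 3 of 8 at 24 hours (4.35%). Within Egr2MKO they were 0 of 8 (0.902%), with 4 at an unadjusted p under 0.05 (limma), 1 of 8 (3.7%) and 2 of 8 (4.83%). Over these 6 comparisons, 26 of 48 member tests and 21214 of 72474 tests of all genes had an unadjusted p under 0.05 (limma). The fall of Ms4a4c in Egr2WT at 24 hours (-1.23; limma, adjusted p = 0.00144) was under 2-fold without the second basal library (-0.93) and with a pseudocount of 5 (-0.50), as was the basal genotype difference of Ms4a4c with that pseudocount (0.86). Differences in response between genotypes were called for 0 of 8 members at 1 hour (0.00828% of all genes) and 0 of 8 at 6 hours (0.207%), with 0 members at an unadjusted p under 0.05 at either time (limma), and for 2 of 8 at 24 hours (1.9%).

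Genes around the cluster and genes of related function were read in the same comparisons. Of 25 other genes within the span of the Ms4a genes or 250 kb of it, 11 passed the filter, and 0 were called between Egr2MKO and Egr2WT at any of the 4 times (limma). An unadjusted p under 0.05 was found for 4, 5, 5 and 4 of them, and in 15321 of 48316 tests of all genes over the 4 times (limma). In the 5 strains, the neighbour Slc15a3, a lysosomal peptide transporter, was higher than C57 in basal NOD (1.28) and lower in basal SPRET (-1.89), and Tmem132a was higher in NOD (1.01) and lower in SPRET (-1.46) at basal, rose with IL-4 in C57 (1.01) and rose less in PWK than in C57 (-1.03). AW112010 was lower in basal SPRET (-4.03), and in the time course Ccdc86 rose in SPRET at 1 hour (1.51; limma, adjusted p at most 3.66e-08 for these 8 calls). The 9 other Ms4a genes did not pass the filter in any table. The related Tmem176a and Tmem176b were called higher in Egr2MKO for 1, 2, 1 and 2 of the 2 genes over the 4 times, and Tmem176b differed by 2.34 ± 0.11 at 24 hours (limma, adjusted p = 1.05e-08). Of 12 receptor, adaptor, kinase and protease genes listed as possible partners of MS4A proteins, 1 was called higher and 1 lower at each time. The higher one was Fcgr1, the high-affinity IgG receptor, with 4.30 and 4.65 TPM in Egr2WT and 33.1 and 34.7 TPM in Egr2MKO at 24 hours. The lower one was Clec7a, with 782 and 802 TPM against 248 and 261 TPM. Of 12 interferon-stimulated genes, 7, 8, 9 and 11 were called higher in Egr2MKO over the 4 times and 0 lower, and Ifit3, an antiviral effector, was at 1.57 and 1.68 TPM against 16.4 and 17.6 TPM at 24 hours. Their part in the levels of the Ms4a genes was not tested. Monocyte markers summed to 64.0 to 68.4 TPM in basal Egr2WT and 46.4 to 46.7 TPM in basal Egr2MKO, neutrophil and progenitor markers to 62.3 to 65.7 against 40.4 to 45.3 TPM, and macrophage markers to 24337 to 25888 against 20632 to 20670 TPM, each lower in Egr2MKO. T cell markers (0.971 to 1.02 against 2.79 to 2.94 TPM) and dendritic cell markers (0.464 to 0.556 against 1.13 to 1.83 TPM) were higher in basal Egr2MKO, at low levels. At 24 hours monocyte markers summed to 17.3 to 18.2 against 16.3 TPM. Macrophage markers (15403.9 to 15627.5 against 12692.5 to 13234.2 TPM) and neutrophil and progenitor markers (19.4 to 22.2 against 11.6 to 16.1 TPM) were lower in Egr2MKO. Markers of T cells (0.634 to 0.659 against 2.30 to 2.69 TPM), B cells (1.47 to 1.55 against 3.00 to 5.31 TPM) and dendritic cells (1.1 to 1.2 against 1.7 to 2.1 TPM) were higher there. Mast cell and basophil marker sums overlapped. The macrophage list held Lyz2, the lysozyme M gene that drives the Cre, and 1 listed gene alone reached 22023 TPM. The macrophage sums at both times can thus be carried by 1 gene and do not measure macrophage content. The part of these marker levels in the result was not tested.

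In the strains, the same 12 interferon-stimulated genes had 7 called higher and 0 lower than C57 in basal NOD (16.9% of all genes called in either direction), 0 higher and 10 lower in basal SPRET (18.1%), 1 higher and 4 lower in basal BALB (4.81%) and 1 higher and 3 lower in basal PWK (13.3%). The genes whose levels followed Ms4a4c most closely over the 29 libraries were Ifi35 (Pearson r = 0.986), Phf11d (0.969) and Cd86 (0.967). Over the 16 time-course libraries, where Ms4a4c was near 1 TPM, r was 0.236, 0.145 and 0.264, and over the 16 Egr2 libraries it was 0.956, 0.919 and 0.799. For Ms4a4a the closest were Ust (0.932), P2ry1 (0.916) and Mcoln2 (0.909), with r in the time-course and Egr2 tables of 0.820 and 0.964 for Ust, 0.501 and 0.246 for P2ry1 and 0.523 and 0.263 for Mcoln2. For Ms4a7 they were Cdkn1a (0.990), Rrp7a (0.986) and Entpd1 (0.979), with r in those tables of 0.200 and -0.399 for Cdkn1a, 0.981 and 0.674 for Rrp7a and 0.986 and -0.358 for Entpd1. The closest gene was Lox for Ms4a6b (0.983, and 0.984 and 0.655 in those tables), 5430427O19Rik for Ms4a6c (0.950, and 0.503 and 0.854), Slc36a4 for Ms4a6d (0.960, and 0.283 and -0.625) and Adamdec1 for Ms4a8a (0.983). Within the family, r over the 29 libraries ran from -0.768 (Ms4a6c with Ms4a7) to 0.794 (Ms4a4c with Ms4a6b). These r describe libraries that share strains and carry no test.

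The F1 hybrids asked whether the parental alleles differ within the same cells. In these tables each gene has a value per allele, which the authors weighted by the reads that cover variants, and only the ratio of the alleles within a library was used. The depth behind the values is unknown, and the C57 x SPRET table gives some genes another length, such as the whole span of Ms4a7, so levels are not compared between genes there. In C57 x SPRET cells, Ms4a7 had 162 and 141 TPM from the C57 allele and 34.4 and 36.3 TPM from the SPRET allele at basal, and 122 and 117 against 25.2 and 58.6 TPM with IL-4. The C57 allele was above the SPRET allele in all 4 libraries, by 2.06 ± 0.35 on the log2 scale at basal (limma, adjusted p = 0.0349) and by 1.61 ± 0.35 with IL-4 (adjusted p = 0.0711). Between the parental strains of the 5-strain table, from which parental ratios here are taken, the same ratio was 6.14 at basal, so both had C57 above SPRET and the parental gap was wider.

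Ms4a4a had 3.82 and 5.67 TPM from the C57 allele and 1.69 and 1.74 TPM from the SPRET allele at basal. With IL-4 it had 7.28 and 7.63 TPM from C57 and 13.6 and 11.3 TPM from SPRET. The C57 allele was thus the higher one in both basal libraries and the SPRET allele in both IL-4 libraries, which is the order of the parental strains in the 5-strain table. In the time course at 24 hours, C57 was the higher parent, at 31.2 and 34.3 against 14.1 and 9.63 TPM. The ratio was 1.063 ± 0.15 at basal (limma, adjusted p = 0.0265) and -0.66 ± 0.15 with IL-4 (adjusted p = 0.0782), and its change of -1.73 ± 0.22 had an unadjusted p of 0.00112 and an adjusted p of 0.506 (limma). The parental log2 ratios in the 5-strain table were 2.70 and -1.69. Ms4a6b, which differed by 4.31 between the parents at basal, had 19.2 and 24.8 TPM from the C57 allele and 14.0 and 13.7 TPM from the SPRET allele, a ratio of 0.62 ± 0.20 (limma, adjusted p = 0.114). The SPRET allele of Ms4a6b was thus far closer to the C57 allele in the hybrid than in the parents. Ms4a4c likewise had 2.40 and 1.90 against 1.86 and 1.78 TPM, a ratio of 0.16 (limma, adjusted p = 0.34), beside a parental one of 3.63 in the 5-strain table. In the time-course table the basal parents lay closer, at 1.23 and 1.10 TPM in C57 and 0.587 and 0.703 TPM in SPRET. Ms4a6d had a ratio of 0.78 ± 0.11 at basal (limma, adjusted p = 0.0263), beside a parental one of 1.42, and Ms4a6c one of 0.09 (adjusted p = 0.785). Ms4a4b and Ms4a8a had at most 1.14 TPM per allele, and Ms4a4b passed the filter through its basal C57 allele alone.

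**Figure D5:**
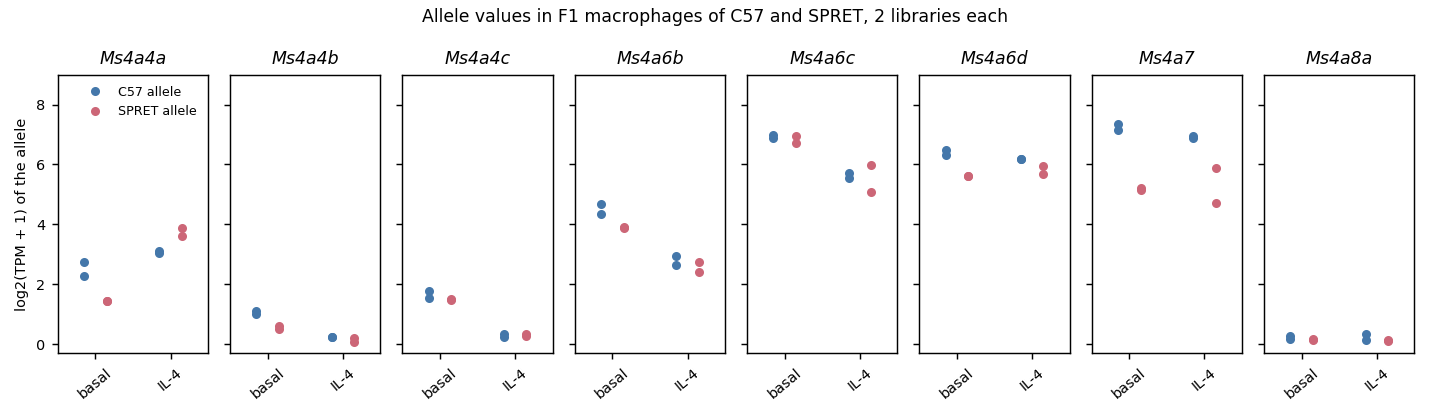
Values of the C57 allele (blue) and SPRET allele (red) of the 8 Ms4a genes in F1 macrophages, as log2(TPM + 1) on the vertical axis, at basal and after 24 hours of IL-4. Points are libraries, 2 per condition. The blue points of Ms4a7 lie above the red points in both conditions, and the order of the alleles of Ms4a4a turns with IL-4.

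In these C57 x SPRET cells, 2 of 7 members tested were called at basal (7.38% of all genes) and 0 of 7 with IL-4 (4.14%), where 3 members had an unadjusted p under 0.05 (limma). Over both conditions, 8 of 14 member tests and 7766 of 24512 tests of all genes had such a p. The change of the ratio was called for 0 of 7 members and 0.0% of all genes, with 2 members and 953 of 12256 genes at an unadjusted p under 0.05 (limma). Both basal calls were lost without either basal library, which leaves 1 library there that is assumed to vary like the others (Ms4a7, adjusted p = 0.188 and 0.151, and Ms4a4a, 0.164 and 0.178). In C57 x NOD cells 5 of the 8 members were listed at 0 in all libraries, as were Actb and Gapdh, which any cell uses, so a 0 there says nothing of expression. Ms4a6d had 1181 and 1173 TPM from the C57 allele and 1460 TPM in both libraries from the NOD allele at basal, a ratio of -0.31 ± 0.12 (limma, adjusted p = 0.732), with a parental one of -1.13. Ms4a6b and Ms4a7 had basal ratios of -0.52 (limma, adjusted p = 0.794) and -0.69 (adjusted p = 0.903). Their parental ratios at basal were 0.84 and 0.74, which go the other way. Of these 3 members 0 were called at basal, with IL-4 or for the change of the ratio, against 0.0% of all 5229 genes tested, and 0 had an unadjusted p under 0.05 (limma).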

How the data were processed

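RNA-seq was measured in 69 mouse BMDM libraries. The authors aligned the 75-bp reads with STAR to strain genomes, shifted them to mm10 and deposited TPM over exons from HOMER, and for F1 cells TPM per allele weighted by reads over variants. The authors' own comparison columns (fold changes with raw and adjusted p-values) were not used, nor were 8 per-sample columns of a human table. For each table, limma 3.58.1 in R 4.3.3 was fitted to log2(TPM + 1) with a trended prior over all genes at 1 TPM or more in at least 2 libraries, with Benjamini-Hochberg adjustment; F1 alleles were compared as within-library log2 ratios. The fits were tested on simulated data. TPM keeps no counts, so no counting interval is given, and tables were normalized separately. Replicate numbers were checked for pairing over pairs of libraries from different groups and were not used as a block. For same-numbered libraries r ran from -0.143 to 0.333, with a median of at most 0.0261 in each table. The check pooled strains and genotypes, so it cannot judge pairing within a strain or genotype. Named genes were the members, the listed genes whose values a result turns on, and the 3 genes with the highest Pearson r to each member over the 5-strain libraries, among genes whose group means spanned at least 1 on the log2 scale. Fcgr1, Clec7a, Ifit3 and Tmem176b were picked from their lists after their values were seen. The members and lists were chosen with earlier results of these data known. Other pseudocounts, filters, scalings, sample sets and left-out libraries were tried.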

Additional observations from a re-analysis of the deposited data

Results flagged for a closer look

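These results were singled out because the response to IL-4 differed between groups by a test of the difference itself (limma, over 2-fold with adjusted p under 0.05), all on the log2 scale. At 24 hours in the 5 strains, the response of Ms4a4a relative to C57 differed by 4.39 in SPRET, 2.00 in PWK, -1.40 in NOD and -1.79 in BALB. In the same table, Ms4a8a differed by 1.32 in PWK, Ms4a4c by 1.20 in SPRET and Ms4a7 by 1.02 in SPRET. Ms4a8a had passed the filter through PWK and IL-4 SPRET libraries alone. In the time course, the SPRET response exceeded that of C57 for Ms4a4a by 1.91 at 1 hour and 2.25 at 6 hours, and that of Ms4a7 at 24 hours differed by -1.68. In the Egr2 table, the 24-hour response was larger in Egr2MKO by 1.46 for Ms4a4a and by 1.63 for Ms4a6b. For Ms4a7, SPRET had the larger 24-hour response in the 5 strains and the smaller one in the time course, and the source of this difference was not tested.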

How the results depend on the processing

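Of 4497 alternative values over 279 results, 4291 stayed on the same side of an adjusted p of 0.05 (limma), 178 lost it and 23 gained it. Another 5 changed sign with an adjusted p under 0.05 in the main or the alternative fit. Changes of sign between values that both missed 0.05 are counted among the 4291, and the 2-fold limit was not used in these counts. With a pseudocount of 5, the members called fell from 1 to 0 (IL-4 in the 5 strains, lower), 5 to 3 (strain responses, higher), 3 to 1 (time course, lower), 2 to 1 (time-course strain responses, higher), 2 to 1 (IL-4 in the Egr2 table, lower) and 2 to 1 (C57 x SPRET alleles, higher), and by smaller shares from 10 to 8 (basal strains, lower), 7 to 6 (IL-4 in the 5 strains, higher) and 18 to 17 (genotypes, higher). A pseudocount of 0.1 gave 1 for the time-course strain responses and 1 for the alleles. No filter on low values gave 1 for both and 1 for the genotype responses, and a fit of the groups compared alone gave 1 for the time-course strain responses and 1 for the genotype responses. In that fit, where fewer libraries enter, the calls in Egr2MKO were lost for Ms4a4a at basal (limma, adjusted p = 0.0787) and for Ms4a4c and Ms4a6b at 6 hours (0.0656 and 0.0562), and the rises of Ms4a4a in SPRET at 1 and 24 hours had an adjusted p of 0.143 and 0.0509. With 1 library, or in the 5 strains 1 replicate number, left out, counts ran from 0 to 1 (IL-4 in the 5 strains, lower, with 0 without the libraries numbered 1), 4 to 6 (strain responses, higher), 1 to 3 (time-course strain responses, higher), 1 to 2 (IL-4 in the Egr2 table, lower), 1 to 3 (genotype responses, higher), 17 to 19 (genotypes, higher) and 0 to 2 (alleles, higher). The genotype difference of Ms4a6c at 1 hour was 0.98 without the second Egr2MKO library of that time. Leaving out 1 library was chosen after seeing the data where groups held 2. Rescaling each library to the median gene ratio changed the sign of Ms4a6c (-0.17) and Ms4a6d (-0.15) for IL-4 in NOD, of Ms4a6c for basal NOD against C57 (0.14) and of Ms4a6d for the NOD response (-0.22), and a pseudocount of 0.1 that of Ms4a6b for the 24-hour SPRET response in the time course (-0.67). The cause was not tested. Same-numbered libraries had a median r of 0.0128, 0.0261 and -0.00199 in the 5-strain, time-course and Egr2 tables, and single pairs reached 0.333. That check pooled pairs across strains and genotypes, so pairing of basal and IL-4 libraries within a strain or genotype cannot be judged from it. With a replicate block each count was unchanged (7 higher and 1 lower for IL-4 in the 5 strains, and 18 higher for the genotypes). Of the single values, 3 lost and 1 gained an adjusted p under 0.05 (limma). In the F1 hybrids the alleles were compared within each library, which pairs them. With 2 libraries per group outside the 5 strains and no counts in the files, differences of members near 1 TPM cannot be judged.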
